A study of Homo sapiens with 12 samples.

Results

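The genes described here are 8 keratins and 1 transcription factor of epithelial cells, most of which help to tell luminal from basal cells of the prostate. They are KRT8, KRT18, KRT19 and KRT7 of luminal and other simple epithelia, KRT5, KRT14, KRT15 and TP63 of basal cells, and KRT80. They were taken by symbol, 9 of the 60660 genes in the deposited tables, and each symbol was present. Their mRNA levels were measured in PCa cells given a synthetic copy of the PIWI-interacting RNA piR-4447944 (the mimic) or its negative control (NC-mimic).

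The androgen-sensitive line LNCaP was derived from PCa cells in a lymph node. The line 22Rv1 was derived from a PCa xenograft that grew back after castration of its host. Each line carried either the mimic or NC-mimic, which gave 4 groups of 3 libraries: LNCaP with NC-mimic, LNCaP with the mimic, 22Rv1 with NC-mimic and 22Rv1 with the mimic. All 12 libraries came from androgen-deprived cells, kept in 10% CS-FBS (serum stripped with charcoal, which removes most androgen). Each line stands for a single tumor, so a difference between the lines is a difference between these cultures, and whether the replicates were separate cultures was not stated, so the p-values measure the spread between these libraries.

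Keratins are the intermediate filament proteins of epithelial cells. A filament is built from pairs of a type I chain, such as KRT18, KRT19, KRT14 or KRT15, and a type II chain, such as KRT8, KRT7, KRT5 or KRT80, and the usual partners are KRT8 with KRT18 and KRT5 with KRT14. In the prostate, secretory luminal cells hold KRT8 and KRT18, while the basal cells beneath them hold KRT5, KRT14 and the transcription factor p63, the product of TP63, and basal cells are lost in most adenocarcinomas.

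The libraries held between 12161091 and 22179601 expected counts, which are reads per gene as estimated by RSEM. Levels are given as TPM, a share of all transcripts that is scaled by transcript length and can be compared between genes. Folds and tests rest on the counts. The replicate 3 libraries of 22Rv1 stood apart from the other 22Rv1 libraries. VIM, the intermediate filament protein of mesenchymal cells, was at 87.0 TPM in NC-mimic replicate 3 and 93.9 TPM in mimic replicate 3, against 19.9 to 30.0 TPM in the other 4. The summed TPM of 13 markers of other cell types was 184 and 199 in these libraries against 98.5 to 115 in the other 4. This sum includes VIM, so it is not a separate sign. Results that rest on the replicate 3 libraries are given with and without them.

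The keratin genes lie in clusters by type. On hg38 (GENCODE v44), the type II genes are on chromosome 12: KRT80 at chr12:52168996-52192014, KRT7 at chr12:52232520-52252186, KRT5 at chr12:52514575-52520530 and KRT8 at chr12:52897187-52949954. KRT18 is the exception, a type I gene at chr12:52948871-52952906 whose start overlaps that of KRT8 on the opposite strand. The other type I genes are on chromosome 17, KRT15 at chr17:41513745-41522529, KRT19 at chr17:41523617-41528308 and KRT14 at chr17:41582279-41586895, with 1087 bases between KRT15 and KRT19. TP63 is at chr3:189631389-189897276. KRT8 and KRT18 share 525 exon bases on opposite strands, 7.63% of the exon bases of KRT8 and 17.1% of those of KRT18. Whether reads were counted by strand was not given in the sources used here, so reads from these bases cannot be assigned to either gene.

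KRT8 and KRT18 were the leading keratins of both lines. KRT8 stood at 432, 383 and 429 TPM in LNCaP with NC-mimic and at 427, 427 and 403 TPM with mimic. In 22Rv1 it stood at 347, 392 and 502 TPM with NC-mimic and at 362, 370 and 821 TPM with mimic. The 6 LNCaP libraries lay close together, and the highest value in each 22Rv1 group was that of replicate 3.

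KRT18 was at 345, 330 and 335 TPM in LNCaP with NC-mimic and at 383, 407 and 363 TPM with mimic. In 22Rv1 it was at 395, 409 and 402 TPM with NC-mimic and at 361, 381 and 558 TPM with mimic. The LNCaP groups did not overlap, and the 22Rv1 groups did. By counts scaled to the library size, groups of 7.95% of the genes tested in LNCaP did not overlap.

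KRT19, a type I keratin of simple epithelia, separated the lines. It was at 2.35, 3.87 and 1.11 TPM in LNCaP with NC-mimic and at 3.23, 1.72 and 0.62 TPM with mimic. In 22Rv1 it was at 199, 238 and 85.97 TPM with NC-mimic and at 176, 249 and 346 TPM with mimic. The lowest 22Rv1 library was far above the highest LNCaP library, and the replicate 3 libraries of 22Rv1 held both its lowest and its highest value.

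KRT7, a type II keratin of ductal and glandular epithelia, had 2 counts over the 6 LNCaP libraries, 1 each in mimic replicates 2 and 3. In 22Rv1 it was at 14.7, 17.7 and 4.68 TPM with NC-mimic and at 11.5, 19.02 and 10.9 TPM with mimic. KRT7 was thus read in all 22Rv1 libraries and hardly in LNCaP, and its lowest 22Rv1 library was NC-mimic replicate 3.

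**Figure D1:**
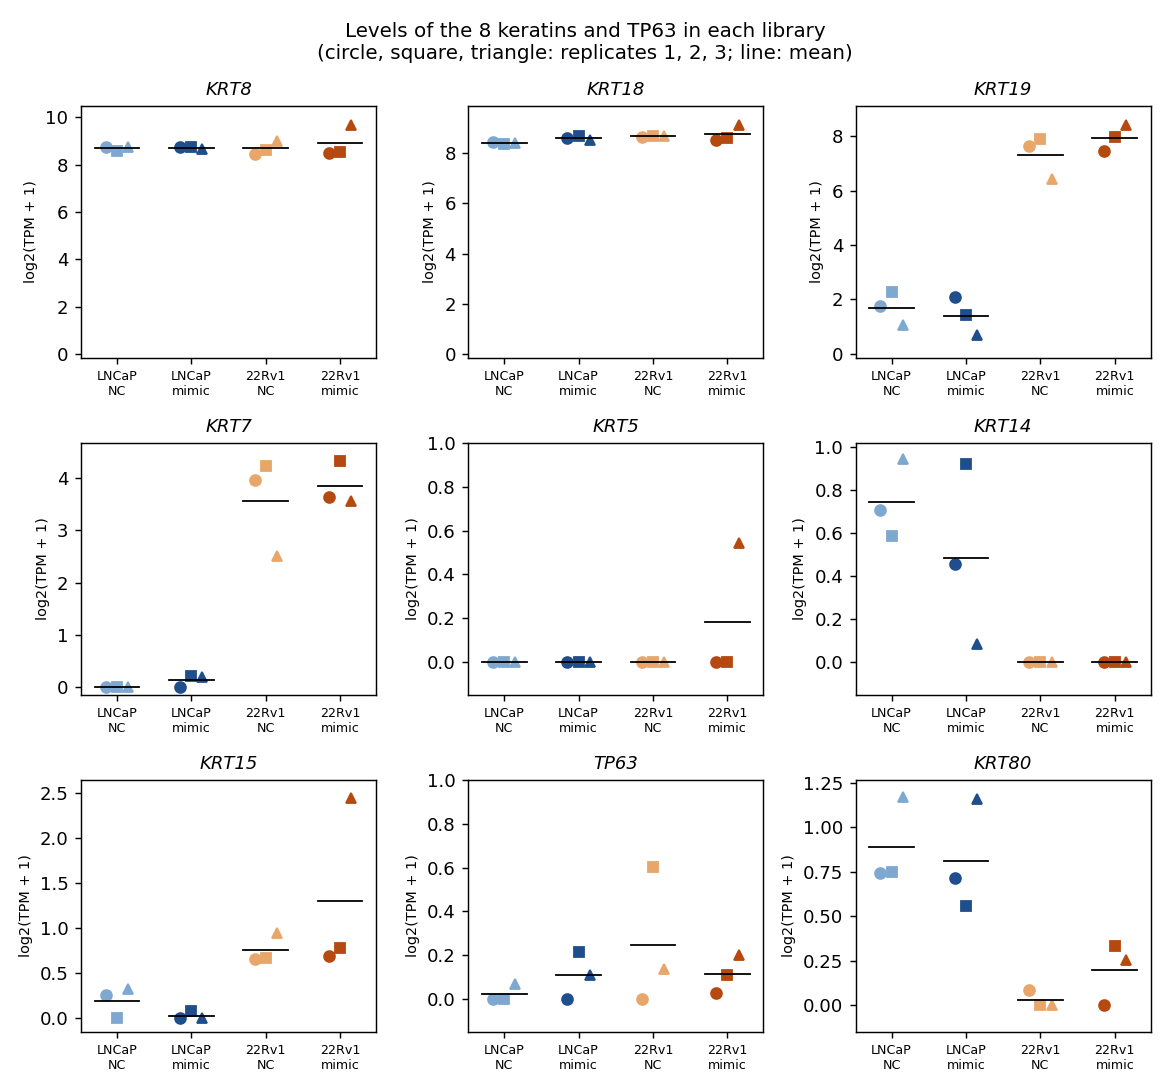
Level of each gene in each library on the log2(TPM + 1) scale, by line and mimic; points are libraries, with circle, square and triangle for replicates 1, 2 and 3, and the line is the group mean. KRT8 and KRT18 lie near the same level in all groups, KRT19 and KRT7 are high in 22Rv1 only, and KRT5, KRT14, TP63 and KRT80 stay at or below 1.25 TPM in all libraries.

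The basal keratins were at or near 0. KRT5, the defining type II keratin of basal cells, had 0 counts in all 6 LNCaP libraries and in 5 of 6 22Rv1 libraries. The remaining library, 22Rv1 with mimic replicate 3, had 3 counts (0.46 TPM). The 0 in LNCaP allows up to 3 of 104001511 counts.

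KRT14, the type I partner of KRT5, was read in LNCaP only. It had 8, 10 and 12 counts with NC-mimic and 5, 9 and 1 with mimic, which were at most 0.92 TPM, and 0 counts in all 22Rv1 libraries. With the 22Rv1 libraries taken at the floor of 3 counts over the line, KRT14 was at least 14.1-fold higher in LNCaP. Of the 75-base windows of its transcripts, 7.05% also occurred in other genes, most often KRT16, so a part of these few reads could belong to a relative.

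KRT15, a type I keratin of basal cells, had 2, 0 and 3 counts in LNCaP with NC-mimic and 0, 1 and 0 with mimic. In 22Rv1 it had 2, 11 and 13 counts with NC-mimic and 10, 11 and 76 with mimic. Mimic replicate 3 held more counts than the other 5 libraries of the line together, at 4.45 TPM against 0.58 to 0.92 TPM, and was also a library with high VIM.

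TP63 had 0, 0 and 1 counts in LNCaP with NC-mimic and 0, 2 and 2 with mimic, and in 22Rv1 0, 9 and 1 with NC-mimic and 1, 5 and 8 with mimic. No library reached 1 TPM, and the highest was 0.52 TPM in 22Rv1 with NC-mimic replicate 2. The lines overlapped.

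KRT80, a type II keratin found in many epithelia, was low and had the reverse pattern to KRT7. It had 35, 36 and 58 counts in LNCaP with NC-mimic and 26, 21 and 56 with mimic. In 22Rv1 it had 3, 0 and 0 counts with NC-mimic and 0, 13 and 8 with mimic. Every LNCaP library was above every 22Rv1 library, although the highest LNCaP value was 1.25 TPM.

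In order of TPM among the genes described here, KRT8 and KRT18 came first in both lines and their ranges overlapped. KRT19 came next in 22Rv1, where all its values (85.97 to 346 TPM) lay under those of KRT18 (361 to 558 TPM) and above those of KRT7 (4.68 to 19.02 TPM). The lowest KRT7 library was just above the highest KRT15 library (4.45 TPM). In LNCaP the third place among these genes was shared by KRT19, KRT80 and KRT14, whose ranges overlapped. They were at 0.62 to 3.87, 0.47 to 1.25 and 0.06 to 0.92 TPM, respectively. KRT10, a keratin outside these genes, was above all of them in LNCaP, at 28.5 to 46.5 TPM.

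The comparison of the lines was fitted over all 12 libraries with the mimic as a further term. With edgeR's quasi-likelihood test and Benjamini-Hochberg adjustment over 18720 genes, 36.2% of the genes were higher and 31.6% lower in 22Rv1 at an adjusted p under 0.05, so most genes differed between the lines. Of the 9 genes described here, 6 had enough counts to be tested, of which 4 were higher (KRT19, KRT7, KRT15 and KRT18), 1 was lower (KRT80) and KRT8 did not pass. KRT5, KRT14 and TP63 were under the filter. KRT7 and KRT15 passed the filter on low counts through 22Rv1 and KRT80 through LNCaP, so they had to differ, and the numbers of 6 genes are not a result about keratins as a group. All fold changes below are on the log2 scale of the fitted counts.

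KRT7 had the largest difference of the 6, at 8.89 (SE 0.61, edgeR adjusted p = 3.41e-08). Its pooled counts over the library sizes gave a ratio of 687 with a 95% counting interval of 190 to 5683, which covers counting error only, and with so few counts in LNCaP the fitted value depends on the count the model adds. An antisense gene, KRT7-AS, shares 282 exon bases (7.05%) with KRT7. KRT19 was higher by 6.95 (SE 0.35, edgeR adjusted p = 1.83e-09), about 124-fold. For KRT19, KRT7 and KRT80 the 6 libraries of each line did not overlap by CPM, counts scaled to the library size, as for 49.3% of all genes tested, and for KRT8, KRT18 and KRT15 they did.

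KRT15 was higher by 4.13 (SE 1.02, edgeR adjusted p = 0.00284) and by 3.29 without 22Rv1 mimic replicate 3. Its difference rests on 6 counts in LNCaP. KRT80 fell by 3.41 on the log2 scale (SE 0.77, edgeR adjusted p = 0.00153), from 232 counts over the LNCaP libraries to 24 in 22Rv1. Between mimic libraries alone it missed the threshold (edgeR adjusted p = 0.0723). For TP63 the 5 counts in LNCaP and 24 in 22Rv1 gave a ratio of 5.12 with a counting interval of 1.92 to 17.2, and without the low-count filter its difference did not pass (edgeR adjusted p = 0.114), while that of KRT14 did (edgeR adjusted p = 0.00048).

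**Figure D2:**
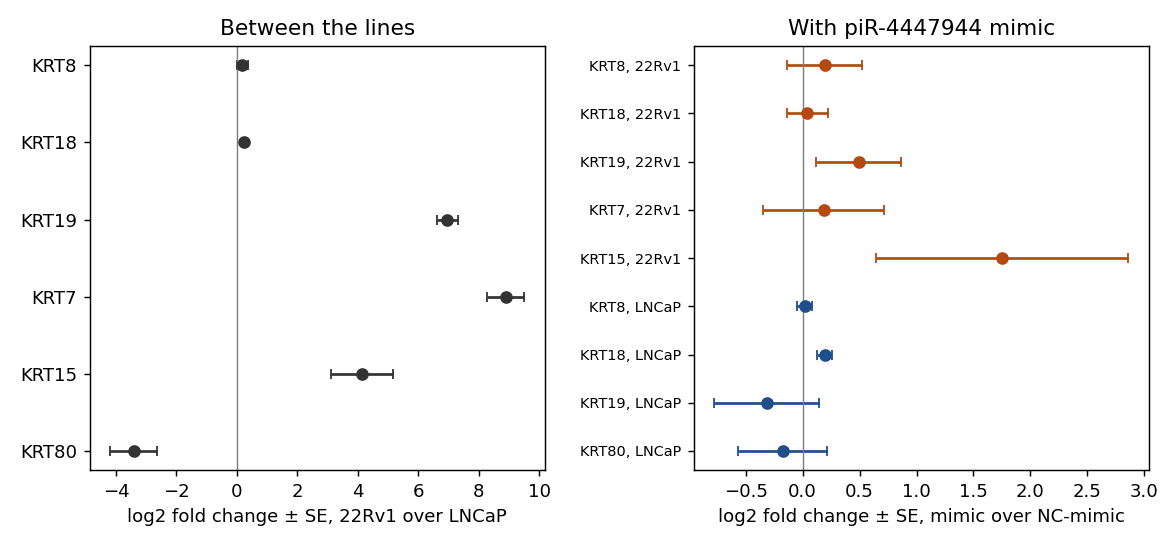
Log2 fold change (point) with its standard error (bar) from edgeR, on the left of 22Rv1 over LNCaP for the 6 genes tested, and on the right of mimic over NC-mimic in each line for those tested there. KRT19, KRT7 and KRT15 lie to the right and KRT80 to the left between the lines, while all mimic differences lie between -0.32 and 1.75 on an axis with a smaller range.

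The difference of KRT18 was small, 0.25 (SE 0.10, edgeR adjusted p = 0.0375), and it was lost in 15 of 24 alternatives, among them the fit without the replicate 3 libraries of 22Rv1 (0.13, edgeR adjusted p = 0.0745). KRT8 differed by 0.17 (SE 0.18, edgeR adjusted p = 0.413). Its direction turned on the same libraries: without them it was lower in 22Rv1, at -0.16 (edgeR adjusted p = 0.0147). KRT18 thus kept its direction in all 24 alternatives but not its call, and KRT8 did not keep its direction. KRT19 was called higher in 22Rv1 in all 23 alternatives run for it. So was KRT7, but it passed the filter through 22Rv1 and had to differ, so its repeated call adds no support.

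The make-up of the keratin mRNA differed between the lines. The 4 simple keratins KRT8, KRT18, KRT19 and KRT7 made up 93.5% to 96.2% of the TPM of all 66 keratin genes in LNCaP and 98.4% to 99.2% in 22Rv1. KRT19 was 0.156% to 1.01% of the type I TPM in LNCaP and 17.03% to 38.6% in 22Rv1. KRT7 was at most 0.0350% of the type II TPM in LNCaP and 0.924% to 4.89% in 22Rv1.

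The sum of type I over the sum of type II was 0.876, 0.994 and 0.853 in LNCaP with NC-mimic and 1.00, 1.02 and 0.978 with mimic. In 22Rv1 it was 1.67, 1.59 and 0.996 with NC-mimic and 1.46, 1.66 and 1.11 with mimic. LNCaP libraries thus held sums closer to equal than the replicate 1 and 2 libraries of 22Rv1. The replicate 3 libraries of 22Rv1, at 0.996 and 1.11, were about as close to equal as LNCaP. Of the 22Rv1 libraries, 5 of 6 held more type I than type II. The lowest ratio of each 22Rv1 group was that of replicate 3, the library with the highest KRT8 of its group.

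**Figure D3:**
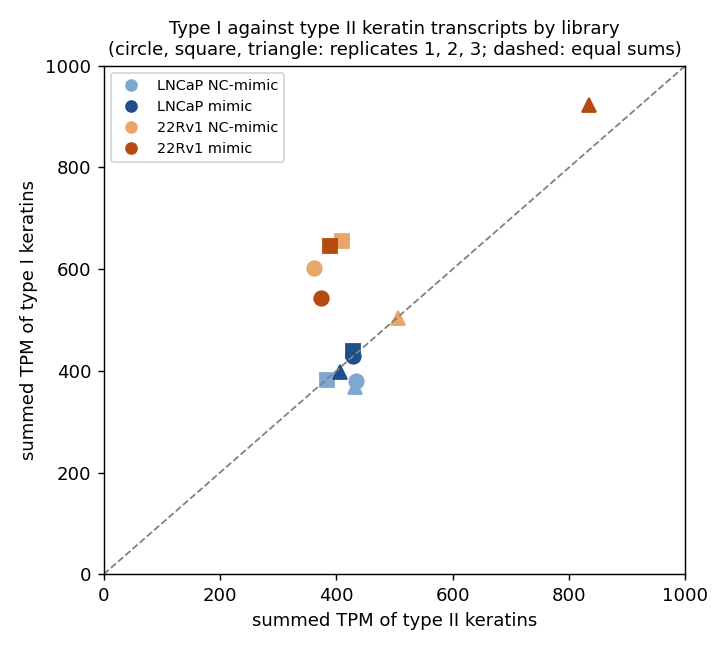
Summed TPM of all type I keratins (vertical axis) against all type II keratins (horizontal axis), 1 point per library, colored by group, with circle, square and triangle for replicates 1, 2 and 3 and a dashed line where the sums are equal. LNCaP libraries sit at ratios of 0.853 to 1.02, the replicate 1 and 2 libraries of 22Rv1 at 1.46 to 1.67, and the replicate 3 libraries at 0.996 and 1.11.

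The ratio of KRT18 to KRT8, its usual partner, was 0.779 to 0.863 in LNCaP with NC-mimic and 0.897 to 0.954 with mimic. It was 1.14, 1.04 and 0.801 in 22Rv1 with NC-mimic and 0.996, 1.03 and 0.679 with mimic. The LNCaP groups did not overlap, and within 22Rv1 the lowest ratio of each group was that of replicate 3. KRT18 alone did not overlap in LNCaP either, so the ratio is not a separate sign. By CPM, 7.95% of the genes tested in LNCaP had groups that did not overlap.

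The effect of the mimic was then compared in each line, which was the question of the sequencing. The study's rule asked for an unadjusted p under 0.05 and a log2 fold change beyond 0.2 in either direction. The study applied it to DESeq2 fold changes that had been shrunk, whereas here it was applied to edgeR fold changes that were not. In this form the rule was met by 2.22% of 16244 genes in LNCaP, and by 0 of the 4 members tested. With shrunken DESeq2 fold changes it was met by 2 genes in LNCaP and 279 in 22Rv1, with 0 members in either. In the main edgeR fit no gene passed an adjusted p under 0.05 and 433 had an unadjusted p under 0.05, while DESeq2 gave 2 adjusted calls and limma 1. With edgeR there were 46 adjusted calls without the low-count filter and 2 without NC-mimic replicate 3.

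KRT18 came closest in LNCaP. By CPM the NC-mimic libraries had a mean of 294 ± 8.36 (SD, n = 3), and the libraries with the mimic had a mean of 336 ± 19.05 (SD, n = 3). The groups did not overlap, at a log2 fold change of 0.19 (SE 0.06, edgeR adjusted p = 0.999), just under the fold limit. The shrunken DESeq2 value was 0.13, further under it. The exact two-sided permutation test gave p = 0.1, the smallest that 3 against 3 libraries allow. Groups of 7.95% of the genes tested did not overlap. Without NC-mimic replicate 1, NC-mimic replicate 3 or mimic replicate 3, KRT18 met the rule on edgeR fold changes, at 0.20, 0.21 and 0.23 respectively.

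Its partner KRT8 differed by 0.02 (SE 0.07) in LNCaP, KRT19 by -0.32 (SE 0.46) and KRT80 by -0.18 (SE 0.39), all with overlapping groups. KRT19, with 9 to 36 counts per library, had the largest standard error of these. The edgeR adjusted p was 0.999 for each.

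In 22Rv1, 1.48% of 16898 genes met the study's rule, and 0 of the 5 tested members did. No gene passed an adjusted p under 0.05 with edgeR, 250 had an unadjusted p under 0.05, DESeq2 gave 1 adjusted call and limma 2. The spread between libraries was larger here, as edgeR's biological coefficient of variation was 0.343 in 22Rv1 and 0.0964 in LNCaP.

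KRT8 differed by 0.19 (SE 0.33) with the mimic in 22Rv1, KRT18 by 0.04 (SE 0.18), KRT19 by 0.49 (SE 0.37), KRT7 by 0.18 (SE 0.53) and KRT15 by 1.75 (SE 1.11). The groups of all 5 overlapped, as against 8.71% of the genes tested whose groups did not. The exact two-sided permutation test gave p of 0.9, 1, 0.5, 0.8 and 0.6. Replicate 3 held most of the difference of KRT19, which went from 199 to 176 TPM in replicate 1, from 238 to 249 TPM in replicate 2 and from 85.97 to 346 TPM in replicate 3. Without both replicate 3 libraries the values of KRT8, KRT18, KRT19 and KRT7 were -0.094, -0.15, -0.059 and -0.087. That of KRT15 was 0.76, and 0.11 without mimic replicate 3 alone. VIM was high in both replicate 3 libraries, and the part of the markers of other cell types in these values was not tested.

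**Figure D4:**
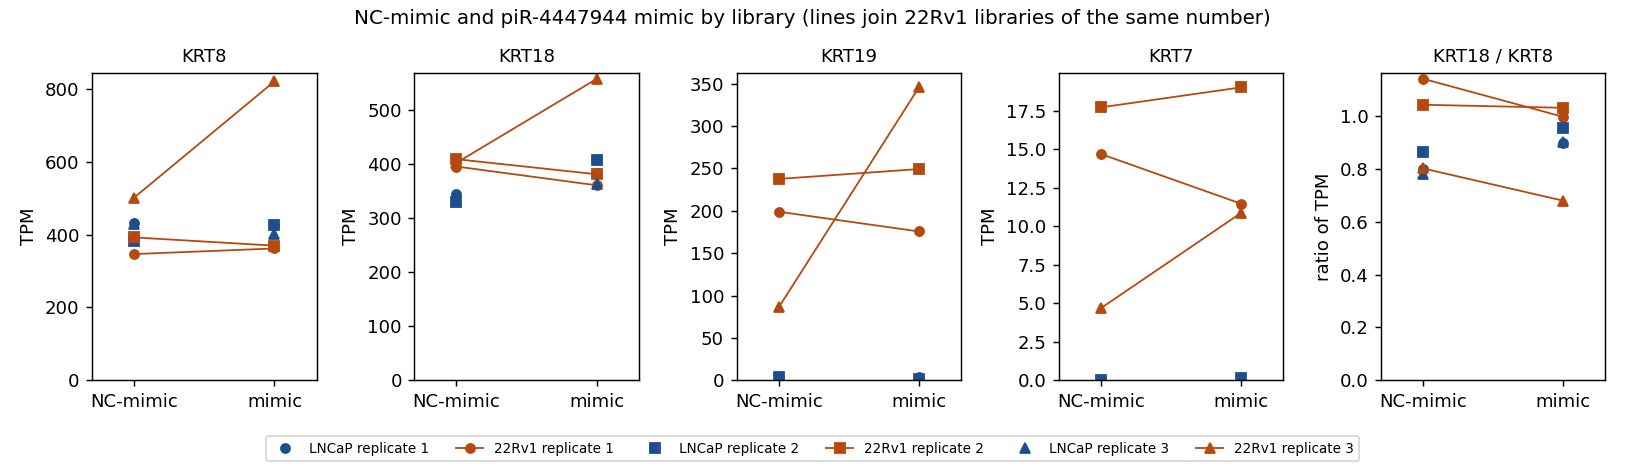
TPM of KRT8, KRT18, KRT19 and KRT7 and the ratio of KRT18 to KRT8 (vertical axes) with NC-mimic and with mimic, blue for LNCaP and orange for 22Rv1, with circle, square and triangle for replicates 1, 2 and 3 and lines that join 22Rv1 libraries of the same number. Replicate 3 of 22Rv1 goes from 502 to 821 TPM for KRT8 and from 85.97 to 346 TPM for KRT19, replicate 1 goes from 199 to 176 TPM for KRT19, and the KRT18 to KRT8 ratio in LNCaP is 0.779 to 0.863 with NC-mimic and 0.897 to 0.954 with the mimic.

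Over both lines, 1.54% of 18720 genes met the rule and 0 of the 6 tested members. With edgeR 0 genes passed the adjusted p, 340 had an unadjusted p under 0.05, and DESeq2 and limma gave 0 adjusted calls each. KRT8 was at 0.11, KRT18 at 0.12, KRT19 at 0.27, KRT7 at 0.29, KRT15 at 0.90 and KRT80 at 0.75, with standard errors of 0.10 to 0.99.

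The difference of the mimic effect between the lines was tested as an interaction and passed for 0 members. With edgeR 0 genes passed the adjusted p, 610 had an unadjusted p under 0.05, DESeq2 gave 3 adjusted calls and limma 2. KRT80 had the lowest p, with an interaction of 2.93 (SE 1.42, edgeR adjusted p = 1.00), and it rests on the 21 counts with mimic against 3 with NC-mimic in 22Rv1.

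Other genes of the luminal and basal program were compared between the lines by the same fit, with calls at an adjusted p under 0.05. In several lists below, some genes passed the filter only through the line where they were high. Such genes were CAV1, PKP1, CHGA and SOX2 through 22Rv1, and TRIM29, TFAP2C and PDGFRB through LNCaP. The filter favored their calls, so the numbers higher and lower in those lists are not results about the lists. The luminal markers were split. Of 12 tested, 4 were higher and 7 lower in 22Rv1, with a median of -0.44 against 0.05 over all genes. KLK3, which encodes prostate-specific antigen, was at 1828 to 2268 TPM in LNCaP and 24.8 to 53.4 TPM in 22Rv1, a log2 fold change of -5.62. ACP3, prostatic acid phosphatase, was at -4.23, and KLK2, a related kallikrein, at -2.16. DPP4, a luminal surface peptidase, was higher by 3.16 and CD24, a luminal surface protein, by 1.88. KRT19 and KRT7 were thus high in the line where KLK3 was low.

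Of 16 other basal markers, 11 were tested, 5 were higher and 5 lower in 22Rv1, with a median of 0.63. CD44, a surface receptor of basal cells, had 7 counts in LNCaP and 7880 in 22Rv1, a log2 fold change of 10.07. CAV1, a coat protein of caveolae, was higher too, by 5.22. LAMA3, a laminin chain, was lower at -4.92, TRIM29 at -4.08 and ITGA6, an integrin of hemidesmosomes, at -3.87. DSG3, a desmosomal cadherin of basal cells, was at 0 in 3 of the 4 groups, as were BNC1 and PDPN, each in its own set of groups.

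**Figure D5:**
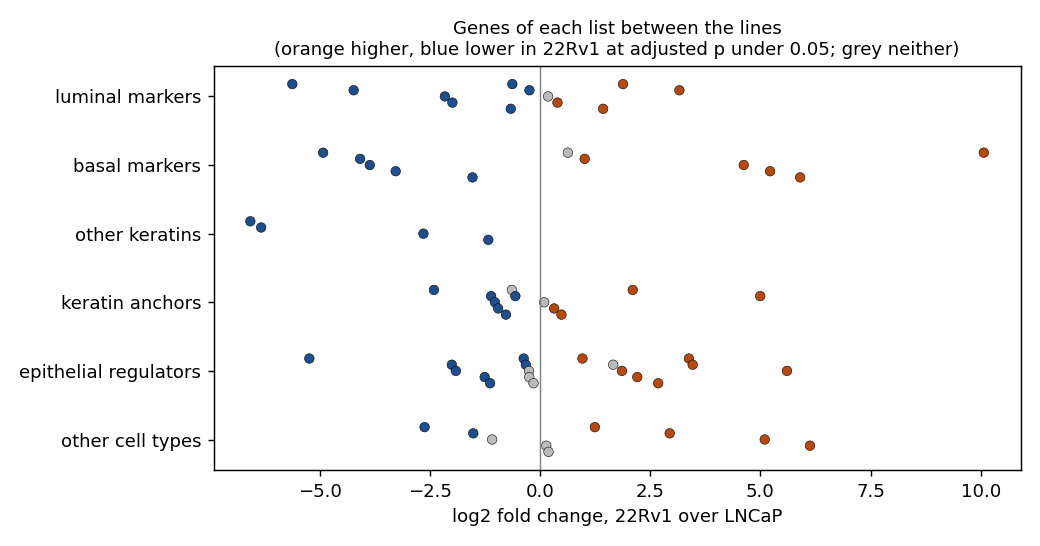
Log2 fold change of 22Rv1 over LNCaP (horizontal axis) for each gene tested in 6 lists, 1 point per gene, orange if higher and blue if lower in 22Rv1 at an edgeR adjusted p under 0.05 and grey otherwise. The 4 other keratins lie on the left, where KRT6C and KRT75 had 0 counts in 22Rv1 and passed the filter through LNCaP, and the other lists have points on both sides.

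The other keratins were low apart from KRT10, which was at 28.5 to 46.5 TPM in LNCaP and 6.91 to 15.4 TPM in 22Rv1. Of 58 other keratins, 4 were tested, and these were lower in 22Rv1. KRT6C and KRT75 passed the filter on low counts through their LNCaP counts alone and so had to differ, and neither the number of genes nor the median is a result about this list. With genes at 0 in a line set to their bound, their median was -3.45, and -4.49 as fitted. KRT6C (74.0 counts) and KRT75 (61 counts) were at 0 in 22Rv1, so they were at least 23.1-fold and at least 19.1-fold higher in LNCaP. KRT6C has near-identical relatives, and its reads may be shared with them. KRT20 (120 counts against 17) was at -2.65 and KRT10 at -1.18. Of 148 keratin pseudogenes 9 were tested, with 2 higher, 3 lower and a median of -0.59. KRT8P30 and KRT8P52 passed the filter on low counts through 22Rv1, and KRT18P59 and KRT8P3 through LNCaP. The filter favored their calls, so neither the numbers nor the median is a result about the pseudogenes. KRT8P30 had 0 counts in LNCaP and 174 in 22Rv1, at least 61.9-fold higher there. KRT18P59 was at -5.25, with 67 counts in LNCaP and 1 in 22Rv1. Reads of KRT8 pseudogenes were 1.52% to 2.86% of the reads of KRT8 and its pseudogenes together, and summing them changed no call.

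Of 12 genes that anchor keratin filaments to desmosomes and hemidesmosomes, 4 were higher and 6 lower in 22Rv1, with a median of -0.60. PKP1, a plakophilin, was higher by 5.00, DST, which links keratins to hemidesmosomes, by 2.10 and PERP, a desmosomal membrane protein, by 0.48. DSC2 (-2.41) and DSG2 (-1.11), both desmosomal cadherins, and DSP, the desmoplakin that binds keratin filaments (-1.03), were lower. Of 18 epithelial transcription and splicing regulators 7 were higher and 7 lower, with a median of -0.20. TFAP2A was higher by 3.46 and KLF5 by 3.38, and TFAP2C (-5.24), GRHL3 (-2.004) and EHF (-1.91) were lower. SOX2, a stem cell factor, had 1 count in LNCaP and 80 in 22Rv1, a ratio of 85.3 with a counting interval of 14.9 to 3412.

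Markers of other cell types were included because a bulk library cannot tell fewer cells of a type from less RNA per cell. Of 13, 9 were tested, 4 were higher and 2 lower in 22Rv1, with a median of 0.19. SYP, a neuroendocrine marker, was higher by 6.13 and CHGA by 5.10, and VIM by 2.94, while PDGFRB (-2.62) and COL1A1 (-1.52) were lower. PTPRC, the leukocyte marker, and COL1A2 were at 0 in both LNCaP groups. The summed TPM of the list was 41.9 to 62.5 in LNCaP and 98.5 to 199 in 22Rv1. SYP alone was at 0.61 to 1.75 TPM in LNCaP and 58.5 to 66.85 TPM in 22Rv1. VIM was at 5.03 to 7.11 TPM in LNCaP and 19.9 to 93.9 TPM in 22Rv1. Much of the higher sum was thus in these genes rather than spread over the list. The part of the list in the higher KRT19 and KRT7 of 22Rv1 was not tested.

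With the mimic, few of these genes met the study's rule, and none passed an adjusted p with edgeR. In LNCaP KLF4 was at 0.42, DSC3 at -2.04 and DSC2 at -0.29, and in 22Rv1 KLK3 was at -0.76 and KLK2 at -0.53, with edgeR adjusted p = 0.999 for each.

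The genes closest in pattern over the 12 libraries were found by the root mean square difference of log2 CPM, each gene centred on its own mean. For KRT8 these were STK40 (0.0813) and THAP3 (0.0950), and for KRT18 IRF3 (0.0768) and CEP164 (0.0839). For KRT19 they were CYP4F29P (0.488) and GSTM2 (0.521), and for KRT7 CES5AP1 (0.345) and PCAT14 (0.352). For KRT15 they were AL109615.2 (0.408) and RCOR2 (0.494), and for KRT80 PIFO (0.492) and ZMYND12 (0.572). No other keratin was among the nearest pair of any of the 6.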

How the data were processed

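Alignment by the authors was to hg38 (STAR 2.7.1a), and quantification used RSEM 1.3.0. The deposited expected counts are estimates that divide a read between the genes it matches, and were not normalized. The deposited TPM take the effective transcript length into account, which varies with the isoforms assigned, so a few counts can give unequal TPM. Read length, strand and annotation release were not given in the sources used here.

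Expected counts were rounded and tested with edgeR 4.0.16 in R 4.3.3 (TMM, filterByExpr, glmQLFit, glmQLFTest), for each line apart and over all 12 libraries, with Benjamini-Hochberg adjustment over all genes of a fit. Fits were checked on simulated counts. The simulated spread was smaller than that between the 22Rv1 libraries, and no low gene was changed. The check therefore does not cover members with few counts or the spread in 22Rv1. Libraries held between 12161091 and 22179601 counts; intervals are exact 95% binomial intervals and cover counting error only. The floor for a count of 0 was 3 counts over a line. Positions and shared 75-base windows came from GENCODE v44. The members and gene lists were chosen with earlier results of these data known. Named genes of each list were up to 3 with the largest and smallest fold change in the line comparison, and for the mimic those meeting the study's rule. Some genes named by this rule are not reported here. Alternatives were DESeq2 1.42.0, limma 3.58.1 on log2(TPM + 1) or log2(TPM + 0.1), other filters, a replicate block, single treatment arms, pseudogenes summed and libraries left out. The DESeq2 fold changes were shrunk, except in the interaction. Correlations of deviations between NC-mimic and mimic libraries of the same number were 0.252, 0.197 and 0.394 in 22Rv1. In LNCaP they were 0.0631, 0.00573 and 0.241, not taken to pair them. In 22Rv1, NC-mimic replicate 1 with mimic replicate 2 gave 0.239, and NC-mimic replicate 2 with mimic replicate 1 gave 0.117. Replicate 3 with the other numbers gave -0.337 to -0.211. The values thus set replicate 3 apart but do not pair replicates 1 and 2 by number. Lines that join 22Rv1 libraries follow the number only, and the main fits and permutation tests were not paired.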

Additional observations from a re-analysis of the deposited data

How the results depend on the processing

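Between the lines 5 members passed, among them KRT7, KRT15 and KRT80, which had to differ because of the filter. The number was 1 with at least 10 counts in every library, which tests 2 members, 2 with limma on log2(TPM + 1), 2 with limma on log2(TPM + 0.1), which test 4, 2 in mimic libraries alone (KRT7 and KRT19), and 4 to 5 with a library left out. With the replicate block 5 passed between the lines and 0 with the mimic, and the numbers of all genes meeting the study's rule were 508 in LNCaP (361 without the block) and 420 in 22Rv1 (250 without it). For the mimic in LNCaP 0 members met the rule, and 0 to 1 with a library left out. In 22Rv1 1 (KRT80) met it with all 12 libraries in one fit, where 1232 genes did. Over all genes the LNCaP number was 2 with DESeq2 and 1008 without NC-mimic replicate 3. With DESeq2, 297 genes had an unadjusted p under 0.05, and 2 of these had a shrunken fold change beyond the limit. The causes of the other changes were not tested.

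Without both 22Rv1 replicate 3 libraries the log2 differences turned: KRT8 between the lines to -0.16, with the mimic in 22Rv1 KRT8 to -0.094, KRT18 to -0.15, KRT19 to -0.059 and KRT7 to -0.087, over both lines KRT8 to -0.029, KRT19 to -0.11, KRT7 to -0.031 and KRT15 to -0.068, and the KRT8 interaction to -0.12. The KRT7 interaction turned to 0.15 with limma on log2(TPM + 1), with and without a filter, a scale that understates low genes. With a library left out, values ran from -0.056 to 0.23 for KRT8 between the lines. In LNCaP they ran from -0.042 to 0.059 for KRT8, -0.66 to 0.067 for KRT19 and -0.65 to 0.20 for KRT80. In 22Rv1 they ran from -0.28 to 0.38 for KRT8, -0.17 to 0.13 for KRT18 and -0.24 to 0.57 for KRT7. Over both lines they ran from -0.11 to 0.19 for KRT8, -0.12 to 0.68 for KRT7 and -0.44 to 1.22 for KRT15, and the KRT8 interaction from -0.30 to 0.38. Counts under about 10 per library limit KRT5, KRT14, KRT15, TP63 and, in 22Rv1, KRT80.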
